A study of Homo sapiens with 6 samples.

Results

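The genes described here are 36 genes of the autophagy machinery and its cargo receptors. They were chosen by name for their function from the 60612 genes of the count table, with earlier results of these data known. They comprise 5 subunits of the ULK initiation complex, 5 of the class III phosphatidylinositol 3-kinase (PI3K) complex, 5 genes for lipid supply and for readers of phosphatidylinositol 3-phosphate, 6 conjugation genes, 4 ATG4 proteases, 5 members of the LC3 and GABARAP family and 6 cargo receptors. RNA came from U87, an established human glioblastoma cell line, infected with lentivirus carrying either a scramble shRNA (NC, 3 libraries) or an shRNA against PRMT6, an arginine methyltransferase of histones and other proteins (shPRMT6, 3 libraries). Both groups were grown in the same medium with serum, with no starvation and no lysosomal inhibitor named, and which of the PRMT6 shRNAs was sequenced is not named. The labels number the shPRMT6 libraries 1 to 3 as shRNA, and these were read as replicates of 1 shRNA; whether the numbers stand for different shRNAs could not be settled from the labels. Cells without any shRNA were not analysed here, so both groups carry a virus and went through puromycin selection. The methods call the 3 samples of a group independent replicates. The comparison asks which autophagy genes differ in RNA between cells with lowered PRMT6 and control cells.

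Macroautophagy encloses cytoplasm in a membrane that closes into an autophagosome and fuses with a lysosome. The ULK kinase complex starts the process, and the PI3K complex then marks the membrane with a lipid that WIPI proteins read. The ATG12 and LC3 conjugation systems attach LC3 and GABARAP proteins to the membrane, and receptors such as p62, the product of SQSTM1, bind cargo on one side and LC3 on the other. Glioblastoma cells keep a basal level of autophagy. Transcripts of these genes report the RNA of the components, not the amount of their proteins or the flow of material through the pathway.

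Read counts summed to between 56388161 and 75887696 in NC and between 61805330 and 67630740 in shPRMT6. Of the 18106 genes tested across the transcriptome, 3362 differed at an adjusted p under 0.05 by edgeR's quasi-likelihood test, and the median log2 fold change was -0.01. PRMT6 itself was at 9.33, 7.97 and 7.19 CPM (counts relative to library size, scaled by TMM) in the NC libraries and at 3.57, 4.58 and 5.24 CPM in the shPRMT6 libraries. It fell by 0.87 on the log2 scale (SE 0.187, edgeR adjusted p = 0.0225), and this call was lost without NC 1, shPRMT6 1 or shPRMT6 2, with log2 fold changes from -1.0 to -0.73 over all single libraries left out. Of 5 genes expected in U87, VIM (7090 to 8430 CPM), TNC (2110 to 2900 CPM) and CD44 (455 to 651 CPM) were abundant, NES was at 38.3 to 45.7 CPM and CHI3L1 at 2.71 to 12.3 CPM. Between the groups, CHI3L1 rose (log2 fold change 1.62, edgeR adjusted p = 0.00294) and TNC fell (-0.35, adjusted p = 0.00585), whereas VIM, CD44 and NES did not pass the threshold. Of the glial markers, the astrocyte gene GFAP was at most 0.886 CPM, SOX2 at most 0.408 CPM, OLIG2 at 2.15 to 3.2 CPM and S100B at 0. The summed level of 6 marker genes of other cell types (PTPRC, CD68, PECAM1, MBP, RBFOX3 and EPCAM) was 154 to 262 CPM in NC and 150 to 325 CPM in shPRMT6, of which 4.42 to 6.3 and 6.54 to 8.65 CPM came from genes other than CD68, with PTPRC, which defines leukocytes, at 0.065 CPM or less. The share of counts from mitochondrial genes was 7.06% to 7.85% in NC and 9.69% to 10.2% in shPRMT6, and its part in the results below was not tested. In bulk RNA, fewer cells expressing a gene and less RNA per cell cannot be told apart.

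Promoter windows of the genes were read from RefSeq (GRCh38.p14), from 250 bases before to 50 bases after each transcript start, and 31 of the 36 genes matched. Stretches of 100 bases directly before the start are shown for 5 of them. OPTN and ULK1 are shown because they had the largest rises, and the capitals mark GC boxes (GGGCGG on either strand), the motif of Sp1-type factors. ATG14 and ATG3 are shown because they were the genes with an E-box (CACGTG), the core of the element read by the TFEB family, and the capitals mark it. GABARAPL1 is shown because it held the palindromic cyclic AMP response element (TGACGTCA), marked in capitals, and because its RNA lay at separate levels within each group. The windows lie at chr10:13099982-13100081 (plus strand) for OPTN, chr12:131894522-131894621 (plus) for ULK1, chr14:55411831-55411930 (minus) for ATG14, chr3:112561963-112562062 (minus) for ATG3 and chr12:10212777-10212876 (plus) for GABARAPL1, and each is written 5′ to 3′ on the gene's strand.
OPTN: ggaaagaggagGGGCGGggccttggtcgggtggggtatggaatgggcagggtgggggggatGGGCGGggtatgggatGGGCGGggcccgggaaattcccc
ULK1: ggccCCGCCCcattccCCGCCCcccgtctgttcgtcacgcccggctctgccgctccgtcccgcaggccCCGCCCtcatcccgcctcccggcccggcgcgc
ATG14: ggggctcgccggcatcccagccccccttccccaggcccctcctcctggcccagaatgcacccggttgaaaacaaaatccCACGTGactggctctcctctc
ATG3: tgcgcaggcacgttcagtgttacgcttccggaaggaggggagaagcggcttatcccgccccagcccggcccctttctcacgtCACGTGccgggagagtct
GABARAPL1: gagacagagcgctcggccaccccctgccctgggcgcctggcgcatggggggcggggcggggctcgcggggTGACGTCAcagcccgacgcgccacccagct

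Across whole windows and on both strands, a GC box stood in 23 of the 31 matched genes (74.2%), beside 48.3% of 27305 genes and 45.0% of 35116 windows in RefSeq. The E-box was found in 2 of the 31 (6.45%, beside 8.77% of genes and 7.26% of windows). Its longer palindrome TCACGTGA, which contains the E-box, was in 1 of them, ATG3 (3.23%, beside 1.18% of genes and 0.98% of windows). The element TGACGTCA was in GABARAPL1 alone (3.23%, beside 2.25% of genes and 1.85% of windows), and a CCAAT box was in 12 (38.7%, beside 39.7% of genes and 34.6% of windows). Of the 10 genes that rose, 6 held a GC box, 4 a CCAAT box and 1 an E-box. These are matches of letters in a fixed window and were not tested.

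Of the 36 genes, 35 passed the filter on low counts. Of these, 10 (28.6%) were higher in shPRMT6 at an adjusted p under 0.05, where 9.51% of all genes tested were higher. They were OPTN, ULK1, NBR1, BECN1, ATG101, WIPI2, ATG14, ATG12, ATG13 and PIK3C3. The 2 genes that fell were the proteases ATG4B and ATG4D (5.71%, where 9.06% of all genes tested fell), and 23 genes did not pass the threshold. All 35 tested genes averaged at least 3 in log2 CPM, a level that 10051 of the 18106 genes reached. Shares called among genes of that level were not computed, so the shares over all genes are not matched for level. The median log2 fold change of the 35 genes was 0.13, with 24 above 0 and 11 below, and no change exceeded 0.57 on the log2 scale in either direction. None changed by more than 1 on the log2 scale, the size that the study's methods ask for. Without overlap between the groups, 13 genes were higher and 4 lower in shPRMT6 (20.3% and 19.9% of all genes tested). An exact permutation test of a single gene over 3 against 3 libraries cannot go below p = 0.1, so calls rest on edgeR, which shares the estimate of spread over genes. ULK2, the kinase paralogous to ULK1, did not pass the filter and was at 0, 0.0526 and 0.0641 CPM in NC and at 0, 0.114 and 0.31 CPM in shPRMT6.

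**Figure D1:**
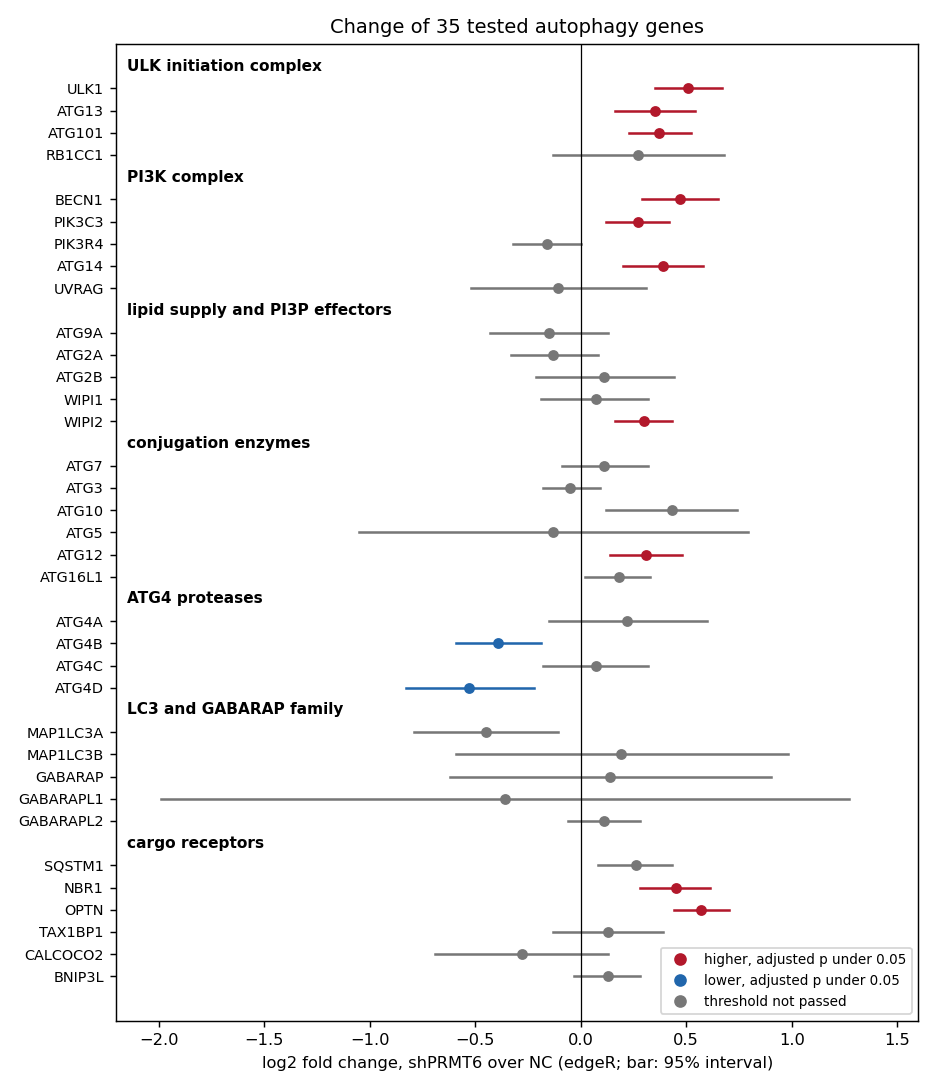
Log2 fold change of shPRMT6 over NC (horizontal axis, with 95% interval as a bar) for the 35 tested genes, grouped by role, from 3 libraries per group. Red points (10 genes, led by OPTN at 0.57) are higher and blue points (ATG4B and ATG4D) lower at an adjusted p under 0.05; the LC3 and GABARAP family has no coloured point and holds the widest interval, that of GABARAPL1 from -1.99 to 1.27.

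The number of calls depended on single libraries. Leaving out shPRMT6 1 or shPRMT6 3 left 5 genes higher, leaving out NC 3 or shPRMT6 2 left 6, leaving out NC 1 left 8, and leaving out NC 2 gave 11. Calls over all genes also fell in these fits, which hold fewer samples, from 3362 to between 1755 and 3183. Both lower calls were lost when any library other than NC 2 was left out. OPTN, ULK1, ATG101, BECN1 and NBR1 kept their calls in all 6 of these fits.

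In the ULK complex, 3 of the 4 tested subunits rose and none fell. ULK1, the kinase that starts autophagosome formation (ENSG00000177169, GRCh38 chr12:131894651-131923167, plus strand), was at 51.3, 53.6 and 56.9 CPM in NC and at 79, 76 and 75.3 CPM in shPRMT6. Every shPRMT6 library lay above every NC library. Its log2 fold change was 0.51 (SE 0.0659, edgeR adjusted p = 0.00413), and it was called in all 16 alternative fits. ATG101, the partner that stabilises ATG13, measured 64.3, 65 and 67.8 CPM in NC and 88.3, 84.9 and 82.3 CPM in shPRMT6. The groups did not overlap, and the log2 fold change was 0.37 (SE 0.0602, edgeR adjusted p = 0.00841). ATG13, the regulatory subunit that joins ULK1 to the complex, measured 104, 90.1 and 94 CPM in NC and 127, 114 and 127 CPM in shPRMT6. It too was higher in each shPRMT6 library than in any NC library, by 0.35 on the log2 scale (SE 0.0793, edgeR adjusted p = 0.0267), but the call was lost without NC 2, NC 3, shPRMT6 1 or shPRMT6 3 (highest adjusted p over the alternatives 0.162). RB1CC1, the scaffold subunit also known as FIP200, ran from 55.2 to 88.9 CPM in NC and from 82.8 to 85.7 CPM in shPRMT6, so the groups overlapped through the single high NC 2 library. Summed over the 5 subunits, FPKM (fragments scaled to transcript length and library size, as deposited) was 40.8 to 43.6 in NC and 53.8 to 56.7 in shPRMT6.

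In the PI3K complex, BECN1, ATG14 and PIK3C3 rose, and PIK3R4 and UVRAG did not pass the threshold. BECN1, which encodes the scaffold Beclin 1 (ENSG00000126581, chr17:42810134-42833350, minus strand), was at 52.1, 55.5 and 50.7 CPM in NC and at 78.2, 72.5 and 68.9 CPM in shPRMT6. No NC library reached the lowest shPRMT6 library. The log2 fold change was 0.47 (SE 0.0749, edgeR adjusted p = 0.00802), called in 15 of 16 alternatives. Part of its exons lie opposite to PSME3 and CNTD1 (17.1% of exonic bases), and the more abundant of these was at an average of 235 CPM, above BECN1 itself. The use of strand in counting is not given, so it is not known whether reads there were told apart. ATG14, the subunit that directs the complex to autophagosome formation, read 29, 32.2 and 31.4 CPM in NC and 40.3, 38.8 and 42.4 CPM in shPRMT6. Again the groups were apart, by 0.39 on the log2 scale (SE 0.0791, edgeR adjusted p = 0.0184). PIK3C3, the catalytic subunit VPS34, measured 45, 48.3 and 45.5 CPM in NC and 55.8, 55.9 and 55.4 CPM in shPRMT6. The 3 shPRMT6 values were nearly equal and above all NC values, with a log2 fold change of 0.27 (SE 0.0632, edgeR adjusted p = 0.0305).

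Of these calls, that of PIK3C3 held in 1 of 6 fits with a library left out, the one without NC 2, and was lost with a correction for GC content and length (0.19, adjusted p = 0.147). That of ATG14 held in 2 of 6, and was lost without NC 3 or any single shPRMT6 library (highest adjusted p over the alternatives 0.0952). PIK3R4, the regulatory subunit VPS15, lay between 36.2 and 38 CPM in NC and between 32.9 and 34.1 CPM in shPRMT6. Its groups did not overlap, with lower values in shPRMT6, but the difference of -0.16 missed the threshold (edgeR adjusted p = 0.158). UVRAG, the subunit that takes the place of ATG14 in endosomal complexes, ran from 11.6 to 12.4 CPM in NC and from 8.5 to 13.3 CPM in shPRMT6, with overlap. The log2 ratio of ATG14 to UVRAG was 1.35 ± 0.126 in NC and 1.87 ± 0.353 in shPRMT6 (SD, n = 3), and it was higher in all 3 shPRMT6 libraries. The difference of 0.52 gave p = 0.1, the smallest possible here, by exact permutation of the libraries (two-sided), and this pair was chosen after the values were seen.

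Among the genes for lipid supply and phosphoinositide reading, WIPI2 rose and the other 4 did not pass the threshold. WIPI2, the reader that brings in ATG16L1, was at 87.9, 82.4 and 87.3 CPM in NC and at 106, 104 and 107 CPM in shPRMT6. The spread within each group was small against the gap between them. Its log2 fold change of 0.30 (SE 0.0562, edgeR adjusted p = 0.0148) was no longer called without any 1 of the shPRMT6 libraries (highest adjusted p over the alternatives 0.063). WIPI1, its relative, ATG9A, the lipid scramblase carried on vesicles, and ATG2A and ATG2B, the lipid transfer proteins, had log2 fold changes from -0.15 to 0.11, and the groups overlapped in each. A share of 31.4% of the 75-base stretches of ATG9A is also found in other genes, most often in a neighbouring readthrough gene, which limits its count.

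In the conjugation systems, ATG12 rose. This ubiquitin-like protein, which is joined to ATG5, read 57.7, 59.1 and 53.3 CPM in NC and 69, 73.4 and 68.2 CPM in shPRMT6. The groups were separate, by 0.31 on the log2 scale (SE 0.0695, edgeR adjusted p = 0.0265). Only 1 of the 6 fits with a library left out kept the call, the one without NC 2, and a correction for GC content and length gave 0.24 with an adjusted p of 0.0571. ATG10, the E2-like enzyme for ATG12, was the next nearest to the threshold, with 6.69 to 8.21 CPM in NC and 9.12 to 10.8 CPM in shPRMT6. It did not overlap between groups, but the change of 0.43 had an edgeR adjusted p of 0.0644. Of the exonic bases of ATG10, 6.86% lie opposite to RPS23, which was at an average of 626 CPM. With the use of strand not given, the part of RPS23 reads in the count of ATG10 was not tested. ATG16L1, which places the ATG12 and ATG5 conjugate on the membrane, likewise lay apart, at 34.1 to 35.2 CPM against 38.4 to 39.8 CPM (log2 fold change 0.18, edgeR adjusted p = 0.114). ATG7, the E1-like enzyme, and ATG3, the E2-like enzyme for LC3, had overlapping groups and log2 fold changes of 0.11 and -0.05. For ATG3 the 95% interval ran from -0.18 to 0.09, the narrowest range around 0 in this role.

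The ATG4 proteases cut LC3 and GABARAP precursors and release them from lipid, and they held the only falls called among the 36 genes. ATG4B (ENSG00000168397, chr2:241637213-241673857, plus strand) was at 41.3, 36.5 and 38.3 CPM in NC and at 28.5, 31.3 and 28.7 CPM in shPRMT6. Each shPRMT6 library lay below each NC library. The change was -0.39 on the log2 scale (SE 0.0836, edgeR adjusted p = 0.0225; highest adjusted p over the alternatives 0.1). ATG4D (ENSG00000130734, chr19:10543895-10553418, plus strand) read 25.4, 19.1 and 23.2 CPM in NC and 16.6, 15.6 and 14.8 CPM in shPRMT6. It was also lower without overlap, by -0.53 (SE 0.126, edgeR adjusted p = 0.0327; highest adjusted p over the alternatives 0.239), and some of its exonic bases lie opposite to KRI1. ATG4A ran from 11.7 to 16.8 CPM in NC and from 16.2 to 18.6 CPM in shPRMT6, and ATG4C from 15.1 to 18.5 and from 17 to 17.5 CPM, both with overlap. The summed FPKM of the 4 proteases was 21.0 to 23.4 in NC and 19.1 to 19.6 in shPRMT6.

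**Figure D2:**
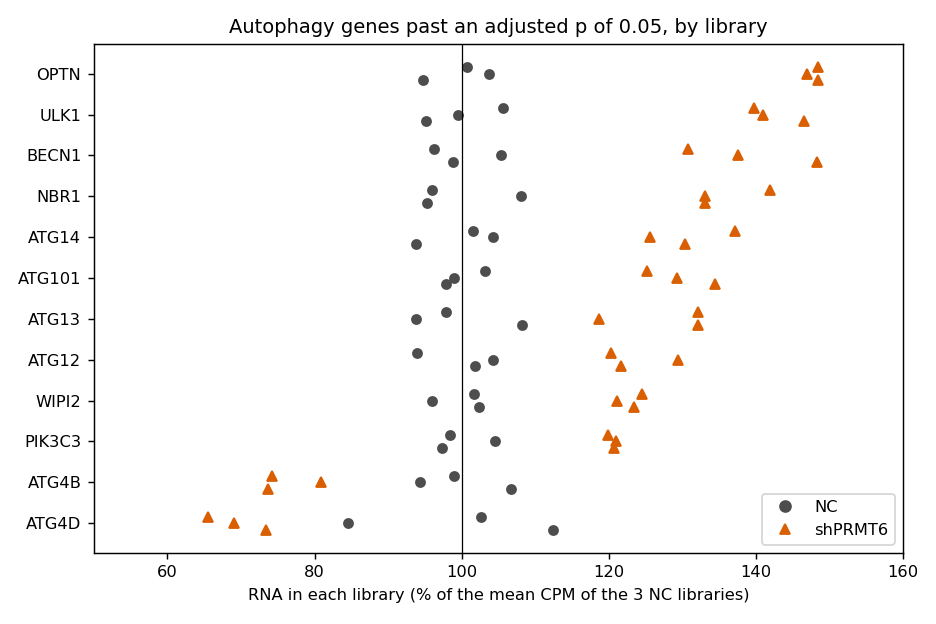
RNA in each library as a percentage of the mean CPM of the 3 NC libraries (horizontal axis) for the 12 genes past an adjusted p of 0.05; circles are NC and triangles shPRMT6 libraries, 3 each. Triangles of the upper 10 genes all lie to the right of the circles and those of ATG4B and ATG4D all to the left.

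No member of the LC3 and GABARAP family passed the threshold. MAP1LC3B, the LC3 form most used to follow autophagosomes, was at 277, 248 and 143 CPM in NC and at 299, 307 and 156 CPM in shPRMT6. The third library of each group was low, and the groups overlapped (log2 fold change 0.19, 95% interval from -0.59 to 0.98, edgeR adjusted p = 0.737). GABARAPL1 was at 59.6, 15.1 and 56.3 CPM in NC and at 20.7, 65.4 and 16 CPM in shPRMT6. It stood at a high and a low level within both groups, with 2 high libraries in NC and 1 in shPRMT6 (log2 fold change -0.36, 95% interval from -1.99 to 1.27, edgeR adjusted p = 0.766). GABARAP was at 191, 94.8 and 165 CPM in NC and at 230, 137 and 128 CPM in shPRMT6, with overlap and an edgeR adjusted p of 0.81. Of its 75-base stretches, 45.1% are shared with other genes, most often with a readthrough gene recorded at an average of 0 CPM. A gene on the opposite strand, at an average of 0.747 CPM, overlaps 25.2% of the exonic bases of GABARAP. MAP1LC3A, another LC3 form, lay at 9.92 to 12.6 CPM in NC and at 7.34 to 9.22 CPM in shPRMT6. It was lower without overlap, but the change of -0.45 missed the threshold (edgeR adjusted p = 0.0754). GABARAPL2 ranged from 75 to 86.3 CPM in NC and from 83.5 to 89.2 CPM in shPRMT6, with a log2 fold change of 0.11.

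Libraries of the same group differed by at least 2-fold in 3 of the 35 tested genes, GABARAPL1, ATG5 and GABARAP, as they did in 7.46% of the 10051 genes averaging 3 or more in log2 CPM. The highest NC library held 3.96 times the lowest for GABARAPL1, 2.25 times for ATG5 and 2.01 times for GABARAP, and in shPRMT6 the ratios were 4.08, 2.12 and 1.79. ATG5, the partner of ATG12, was at 36.5, 82.1 and 78.9 CPM in NC and at 41.5, 50.9 and 88.1 CPM in shPRMT6. The low libraries were NC 1, shPRMT6 1 and shPRMT6 2, whereas for GABARAPL1 they were NC 2, shPRMT6 1 and shPRMT6 3. The log2 fold change of ATG5 was -0.13 with a 95% interval from -1.05 to 0.79, which includes changes as large as that of OPTN in either direction. What sets the libraries apart was not tested.

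**Figure D3:**
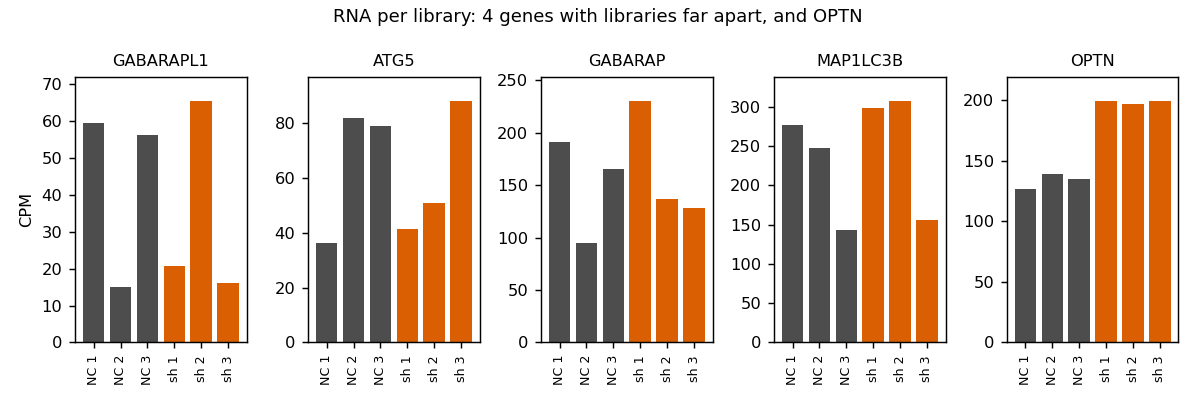
CPM (vertical axis, from 0, with its own scale in each panel) in each of the 3 NC libraries (grey bars) and 3 shPRMT6 libraries (orange bars) for GABARAPL1, ATG5, GABARAP and MAP1LC3B, with OPTN for comparison. High and low libraries occur in both groups for the first 4 genes, such as 15.1 and 59.6 CPM within NC for GABARAPL1, whereas OPTN runs from 127 to 139 CPM in NC and from 197 to 199 CPM in shPRMT6.

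Of the cargo receptors, OPTN and NBR1 rose. OPTN, encoding optineurin, a ubiquitin-binding receptor for mitochondria and bacteria (ENSG00000123240, chr10:13099449-13138308, plus strand), was at 127, 139 and 135 CPM in NC and at 199, 197 and 199 CPM in shPRMT6. The shPRMT6 libraries were nearly equal, and all lay above the NC libraries. Its log2 fold change of 0.57 (SE 0.0557, edgeR adjusted p = 0.00178) was the largest among the 35 tested genes and was called in all 16 alternatives. NBR1, a receptor for protein aggregates and peroxisomes, read 141, 160 and 142 CPM in NC and 197, 197 and 210 CPM in shPRMT6. It was higher without overlap, by 0.45 (SE 0.0696, edgeR adjusted p = 0.00765), in 15 of 16 alternatives. SQSTM1 (ENSG00000161011, chr5:179806398-179838078, plus strand) was at 707, 597 and 683 CPM in NC and at 811, 800 and 767 CPM in shPRMT6. The groups did not overlap, yet the change of 0.26 (SE 0.0732) just missed the threshold with an edgeR adjusted p of 0.0535. Of the 16 alternatives, 4 called it, among them a correction for GC content and length (0.36, adjusted p = 0.003). It was called in 0 of the 6 fits with a library left out (highest adjusted p over the alternatives 0.296). Of its exonic bases, 22.0% lie opposite to MRNIP and MGAT4B. BNIP3L, the mitophagy receptor of maturing red cells also known as NIX, measured 444, 496 and 431 CPM in NC and 490, 496 and 510 CPM in shPRMT6. One NC library reached the shPRMT6 range, and the change of 0.13 (95% interval from -0.03 to 0.28) was not called (edgeR adjusted p = 0.241). TAX1BP1 and CALCOCO2, receptors for ubiquitinated cargo and bacteria, had log2 fold changes of 0.13 and -0.28 with overlapping groups. Summed over the 6 receptors, FPKM was 220 to 225 in NC and 259 to 266 in shPRMT6.

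Compared per length, as mean FPKM in NC, the 6 highest genes were receptors or members of the LC3 and GABARAP family, while the other 5 of those roles ranked from 11 (NBR1) to 18 (MAP1LC3A), below genes such as WIPI1, ATG101 and ATG3. BNIP3L was highest (92.7), followed by SQSTM1 (73.9), GABARAP (64.7), MAP1LC3B (37.1), GABARAPL2 (22.4) and OPTN (21.9). BNIP3L lay above SQSTM1 in every NC library, at 88.2 to 101 against 66.7 to 78.2 FPKM. SQSTM1 and GABARAP (40.9 to 81.5 FPKM) overlapped, as did GABARAP and MAP1LC3B (24.1 to 45.7 FPKM), and GABARAPL2 and OPTN (21.0 to 23.9 and 20.6 to 22.7 FPKM). WIPI1, ranked 7, ran from 19.7 to 22.2 FPKM and overlapped with both GABARAPL2 and OPTN, so the order from rank 5 to rank 7 is not settled. The lowest of the tested genes were UVRAG (1.38) and ATG10 (1.13), whose NC ranges were 1.33 to 1.42 and 1.03 to 1.25 FPKM. In shPRMT6, OPTN reached 32.3 to 32.8 FPKM and no longer overlapped with GABARAPL2, at 23.5 to 25.0 FPKM.

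**Figure D4:**
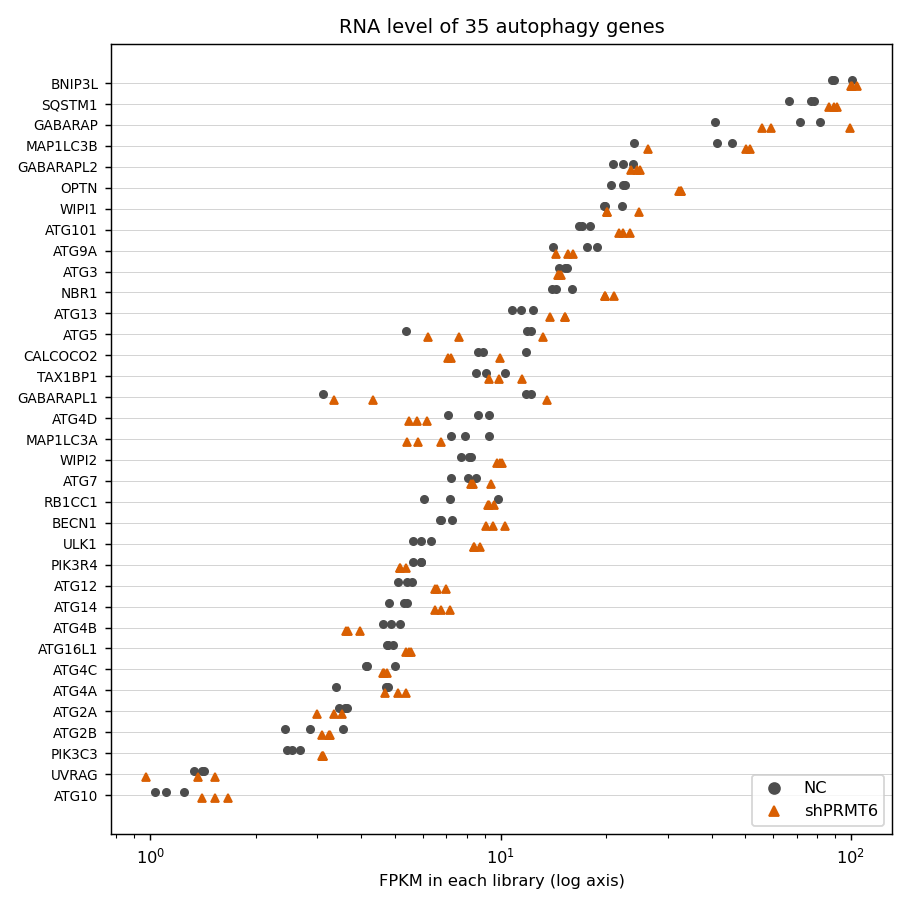
FPKM in each library (horizontal log axis) of the 35 tested genes, ordered by their mean in NC; circles are NC and triangles shPRMT6, 3 libraries each. Levels run from 1.13 (ATG10) to 92.7 (BNIP3L) on average in NC, and the groups lie apart for OPTN, ULK1 and NBR1 but are intermixed for GABARAPL1 and ATG5.

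A further 66 genes of the pathway, none of them among the 36, were listed by function, with earlier results of these data known. Of the 66 genes, 64 were tested. Of these, 16 (25.0%) were higher and 4 (6.25%) lower in shPRMT6, beside 9.51% and 9.06% of all genes tested, and the median change was 0.15 on the log2 scale. Here too, the shares over all genes are not matched for level. The genes with the smallest p upward were RETREG1, a receptor for the endoplasmic reticulum (1.05, edgeR adjusted p = 0.00196), VPS18, a subunit of the HOPS tethering complex (0.66, 0.00321), CALCOCO1, a receptor for the endoplasmic reticulum and Golgi (0.44, 0.00382), and PLEKHM1, an adaptor for lysosome fusion (1.03, 0.00476). Downward they were WDR45B, a relative of WIPI1 and WIPI2 (-0.95, edgeR adjusted p = 0.00114), RPTOR and RHEB, a subunit and the activator of the kinase mTORC1 (-0.38, 0.00989 and -0.40, 0.0136), and BNIP3, the relative of BNIP3L (-0.28, 0.0141). WDR45B read 202, 174 and 172 CPM in NC and 92.7, 94.2 and 96 CPM in shPRMT6, so it moved in the opposite direction to WIPI2. BNIP3 measured 1110, 1020 and 1030 CPM in NC and 889, 863 and 846 CPM in shPRMT6, without overlap. By function, 2 rose and 2 fell of 14 nutrient kinases and their partners, 3 rose and 1 fell of 14 other core factors, 4 rose and 0 fell of 13 fusion genes, and 5 rose and 1 fell of 15 other receptors. Of 6 transcription factors of the pathway (TFEB, TFE3, MITF, FOXO1, FOXO3 and ZKSCAN3), 0 passed the threshold by edgeR's test, with 2 at an unadjusted p under 0.05. Of the mitophagy kinases, PINK1 and TBK1 both rose (0.44, edgeR adjusted p = 0.0304, and 0.38, adjusted p = 0.0448), and each call held in 1 of 6 fits with a library left out. Leaving out shPRMT6 2 or shPRMT6 3 lowered the 16 rises to 10.

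**Figure D5:**
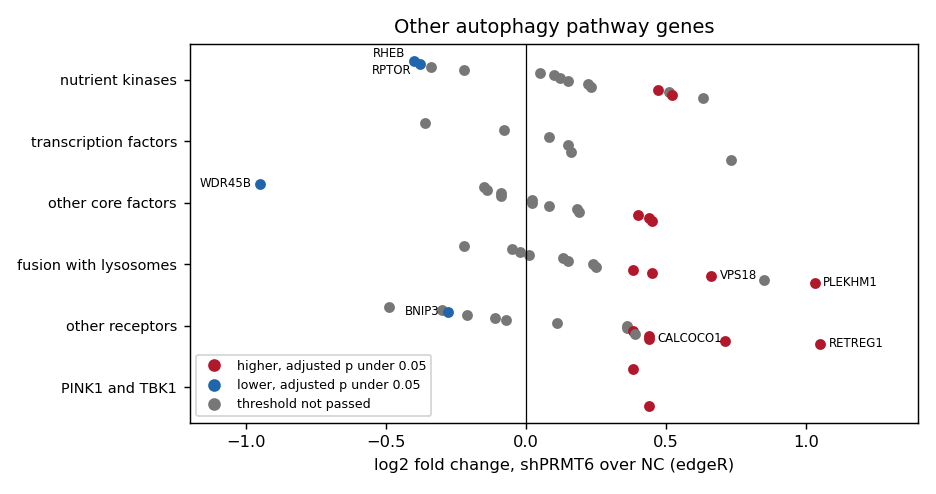
Log2 fold change of shPRMT6 over NC (horizontal axis) of the other pathway genes tested, 1 point per gene, in rows by function; red points are higher, blue points lower at an adjusted p under 0.05, and MAP1LC3C, at 0.65 CPM or less, is left out. Red points occur in every row except that of the transcription factors, and WDR45B at -0.95 lies farthest to the left.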

How the data were processed

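The members and gene lists were chosen with earlier results of these data known. The authors deposited, for every gene, unscaled read counts and FPKM values for 3 NC and 3 shPRMT6 libraries of U87 cells. The submitters' processing notes name HISAT2, HTSeq 0.13.5 and GRCh38; the tool behind the FPKM values and the use of strand are not given in the sources used here. The labels name Trizol and the methods text a column kit for RNA extraction. Counts were tested with edgeR 4.0.16 in R 4.3.3 (quasi-likelihood test with TMM factors, filterByExpr by condition, Benjamini-Hochberg adjustment over 18106 genes, threshold 0.05), over all 6 libraries and with no replicate block. Errors are SE of the edgeR log2 fold change or SD over 3 libraries. Each SE was derived from the test, as the size of the log2 fold change divided by the square root of its F statistic. The 95% intervals were built from that SE with a t quantile. Replicate libraries varied beyond counting error (chi-square per degree of freedom at least 53.05). Same-numbered libraries did not deviate together.

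Levels between genes were compared in FPKM. Values per library were given for the called genes and for ULK1, BECN1, MAP1LC3B, GABARAPL1, SQSTM1 and BNIP3L, and of other pathway genes the 4 with the smallest p in each direction were named. ATG5, GABARAP and genes described for their spread, together with PINK1, TBK1 and further single values, were added after values were seen. Exon overlaps, GC content and shared 75-base stretches were taken from GENCODE 29 with Python 3.11.15. Alternatives were DESeq2 1.42.0, other scalings and filters, limma 3.58.1 on log2(FPKM + 1) and log2(FPKM + 0.1), a replicate block, a stricter threshold and each library left out; the correction for GC content and length was an addition made once the results were known. On simulated counts, edgeR found 99% of 200 genes made to change among 18124, and 3.88% of its calls were false. How the share found varies with the size of a change, or with the spread between replicates, was not tested. For changes of the size seen in the 35 tested genes, at most 0.57 on the log2 scale, the share found was not tested. The values of 1 gene among the other pathway genes are not given.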

Additional observations from a re-analysis of the deposited data

How the results depend on the processing

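Against 10 members higher and 2 lower, 3362 genes called in all, and 16 higher and 4 lower among the other pathway genes, the counts moved as follows. With a replicate block, 6 members were higher and 0 lower, 1858 genes were called in all, and PRMT6 was at -0.88 (adjusted p = 0.0803); same-numbered libraries did not pair (correlations of their deviations -0.0159, -0.0441 and -0.0455). limma on log2(FPKM + 1) without a filter called 1073 genes, with 4 members higher and 0 lower, 4 and 1 other pathway genes, and PRMT6 at -0.47 (adjusted p = 0.158). A filter of at least 1 count in any library left 1 member lower. An adjusted p under 0.01 gave 1320 genes, 5 members higher and 0 lower, and 7 and 2 other pathway genes. The threshold of the methods gave 1072 genes, 0 members in either direction, and 2 and 0 other pathway genes. With single libraries left out, 1755 to 3183 genes were called, 5 to 11 members were higher and 0 to 2 lower, the members' median ran from 0.08 to 0.19, 10 to 16 other pathway genes were higher and 2 to 5 lower, and PRMT6 ran from -1.0 to -0.73. The sign turned in 6 members that were not called, whose log2 fold changes then ran from -0.01 to 0.27 (ATG2B, turned without NC 1), -0.51 to 0.08 (ATG5, without NC 2, NC 3 or shPRMT6 1), -0.18 to 0.34 (GABARAP, without NC 2 or shPRMT6 1), -0.05 to 0.45 (MAP1LC3B, without NC 3), -0.25 to 0.06 (UVRAG, without shPRMT6 1) and -0.04 to 0.13 (WIPI1, without shPRMT6 2). Fewer samples enter these fits, and the cause of the other changes was not tested. No called member changed sign under any of the 16 alternatives. DESeq2 called 12 members higher and 2 lower, and the correction for GC content and length 9 and 3, with PIK3C3 and ATG12 lost and PIK3R4 (-0.22, adjusted p = 0.0397) and SQSTM1 gained. ULK2, at 0.31 CPM or less, did not pass the filter on low counts and was not tested.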

Other observations

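STBD1, a receptor for glycogen listed among the other pathway genes, was chosen here after its values were seen. Its own row read 44.1, 6.62 and 43.5 CPM in NC and 11.1, 55.6 and 54.1 CPM in shPRMT6, with low and high libraries in both groups (log2 fold change 0.36, SE 0.81, edgeR adjusted p = 0.805). The readthrough gene FAM47E-STBD1, which carries the same exons, was at 0, 37.5 and 0 CPM in NC and at 43.7, 1.22 and 0.0148 CPM in shPRMT6, high where STBD1 was low. Added together, the pair gave 44.1, 44.2 and 43.5 CPM in NC and 54.8, 56.9 and 54.1 CPM in shPRMT6. The sum did not overlap between groups and was 0.33 higher in shPRMT6 on the log2 scale (SE 0.0611, edgeR adjusted p = 0.0133, tested after seeing the data).

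Low and high libraries within both groups were also seen in STX17, the autophagosomal SNARE, at 18.7, 5.16 and 19 CPM in NC and at 24.5, 5.25 and 6.94 CPM in shPRMT6. AKT1S1, an inhibitory subunit of mTORC1, was at 55.7, 55.7 and 127 CPM in NC and at 58.6, 131 and 57.2 CPM in shPRMT6. RAB7A, the small GTPase of late endosomes, was at 269, 236 and 265 CPM in NC and at 284, 520 and 582 CPM in shPRMT6, and its change of 0.85 was not called (edgeR adjusted p = 0.0622). These genes were also chosen after their values were seen.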
